A study of Mus musculus with 15 samples.

Results

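The DNA damage response of the mouse oocyte was followed through 9 genes, Atm, Atr, Chek1, Chek2, Trp63, Trp53, Mdm2, Brca1 and Brca2. They were taken by symbol, by way of their Ensembl identifiers in the GENCODE vM21 annotation, out of the 55401 gene identifiers with counts, and all 9 are among the 21009 genes kept by the filter on low counts. The study asked how the growth of preantral follicles in vitro, and neurotrophin-4 (NT-4), a growth factor that signals through the TRKB receptor, bear on the oocyte. Oocytes at the germinal vesicle (GV) stage from Kunming mice were collected in pools of 6, and each pool was amplified with SMART-Seq2, which primes on poly(A) tails, and sequenced as 1 library. There were 5 groups of 3 libraries. IVV oocytes came from antral follicles grown in vivo. Their samples are given an age of 12 to 14 days, as in all groups, but the methods do not separately state the age of the in vivo donors. IVG and IVG-NT oocytes came from follicles dissected from mice aged 12 to 14 days and cultured with follicle-stimulating hormone (FSH) for 10 days, without and with NT-4. The day 6 groups came from follicles cultured for 6 days without and with NT-4. Whether the day 6 and day 10 follicles shared cultures is not stated. All groups were from 1 strain, and a library is a pool of cells, so the spread between single oocytes was not measured.

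ATM and ATR are the kinases that sense broken DNA and stalled replication forks. They activate CHEK2 and CHEK1, the checkpoint kinases, which in turn act on p53 family proteins, and MDM2 is the ubiquitin ligase that keeps p53 low. In the resting oocyte it is p63, the product of Trp63, that carries out the death of cells with unrepaired breaks, through CHEK2, and BRCA1 and BRCA2 take part in the repair of breaks by homologous recombination. These proteins are controlled largely by phosphorylation, which RNA counts do not show. The GV oocyte is arrested in meiotic prophase, and once fully grown it lives on stored RNA.

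Promoter windows of 250 bases before the start of transcription (RefSeq, GRCm38.p6) were read for 8 of the 9 genes. Shown are those of Chek1, the only member called in a comparison between culture groups, of Mdm2, the member whose IVG libraries stood above those of IVV and of IVG day 6, and of Brca2, whose window holds the rarest of the 3 motifs searched. They lie at chr9:36726659-36726908 on the minus strand for Chek1, at chr10:117710759-117711008 on the minus strand for Mdm2, and at chr5:150522371-150522620 on the plus strand for Brca2. Letters are 5′ to 3′ on the gene's strand, and capitals mark matches on either strand to a CCAAT box, to a GC box spelled GGGCGG, or to an E2F-type motif spelled TTTCCCGC, which do not overlap each other in these windows.
Chek1: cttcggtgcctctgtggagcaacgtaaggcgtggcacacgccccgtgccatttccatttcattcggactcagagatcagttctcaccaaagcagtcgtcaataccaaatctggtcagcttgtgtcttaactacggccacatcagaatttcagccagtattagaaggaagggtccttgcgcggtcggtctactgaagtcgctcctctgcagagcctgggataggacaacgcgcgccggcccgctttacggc
Mdm2: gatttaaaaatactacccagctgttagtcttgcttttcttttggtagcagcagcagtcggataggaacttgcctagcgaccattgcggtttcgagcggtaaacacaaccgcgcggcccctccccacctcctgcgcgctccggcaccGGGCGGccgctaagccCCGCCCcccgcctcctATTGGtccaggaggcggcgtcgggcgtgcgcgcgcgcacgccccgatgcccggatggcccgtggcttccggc
Brca2: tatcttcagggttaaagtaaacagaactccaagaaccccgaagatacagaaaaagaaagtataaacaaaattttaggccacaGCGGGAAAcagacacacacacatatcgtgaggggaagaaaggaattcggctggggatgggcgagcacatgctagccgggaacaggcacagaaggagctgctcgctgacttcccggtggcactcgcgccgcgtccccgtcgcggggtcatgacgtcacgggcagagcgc
CCAAT was found in 33.8% of 32536 promoter windows of that length and in 5 of the 8 of the members. GGGCGG was in 33.0% of all windows and 3 of the 8, and TTTCCCGC in 0.9% of all windows and 2 of the 8, those of Brca2 and Chek2. The Chek1 window held none of these letters, and it lies in a non-coding Chek1 transcript of the annotation.

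The libraries held 5954262 to 55593251 counts. In 9 of them 12.5% to 37.9% of counts fell on 1 annotated ribosomal RNA (rRNA) gene, CT010467.1, and in the other 6 under 1%. The rRNA-rich ones are replicates 1 and 2 in the 4 culture groups and replicate 3 in IVV, so each group holds both kinds. Replicates 1 and 2 of IVG-NT day 6 were shallow, with 5954262 and 7125348 counts, and their part in a result is given beside it. Defining oocyte markers, 14 genes, summed to 14092 to 26762 CPM, a gene's counts scaled to a common library size after normalization, and none was at 0 in a whole group. The 16 granulosa cell markers summed to 265 to 1507 CPM, the 10 theca and stroma markers to at most 36.7 CPM and the 9 macrophage and blood markers to at most 65.8 CPM. The granulosa cell markers differed among themselves. Amh was at 0 in all libraries of IVG, IVG-NT and IVG-NT day 6. Serpine2 was at 148 to 1240 CPM and Nr5a2 at 4.52 to 115 CPM over all libraries, and Inha at 40.7 to 119 CPM in IVV.

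Per kilobase of transcript Chek1 was by far the highest of the 9 genes. Its level in FPKM, which divide the counts by exon length and by the library's total, was 70.9 ± 8.16 in IVV (SD, n = 3 in each group), 107 ± 33.9 in the IVG oocytes and 151 ± 70.0 with NT-4. The day 6 level was 318 ± 219 without NT-4 and 112 ± 55.2 with it. Its lowest library lay above the highest library of the next gene in each of the 5 groups. That placed Chek1 at the 95.6 percentile of the tested genes in IVV and at the 99.4 percentile in IVG day 6. Mdm2, Brca1, Brca2 and Trp53 had group means of 2.46 to 21.3 FPKM and Trp63 of 2.02 to 5.62 FPKM. The means of Atr, Chek2 and Atm were 1.25 to 2.49, 0.77 to 1.03 and 0.64 to 2.42 FPKM. The order below Chek1 changed with the group, and Trp63 lay above Trp53 in IVG day 6 and below Atm in IVG-NT day 6. Below Chek1, the neighbours in the order that did not overlap were Trp53 and Trp63 in IVV and Atr and Chek2 in IVG.

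**Figure D1:**
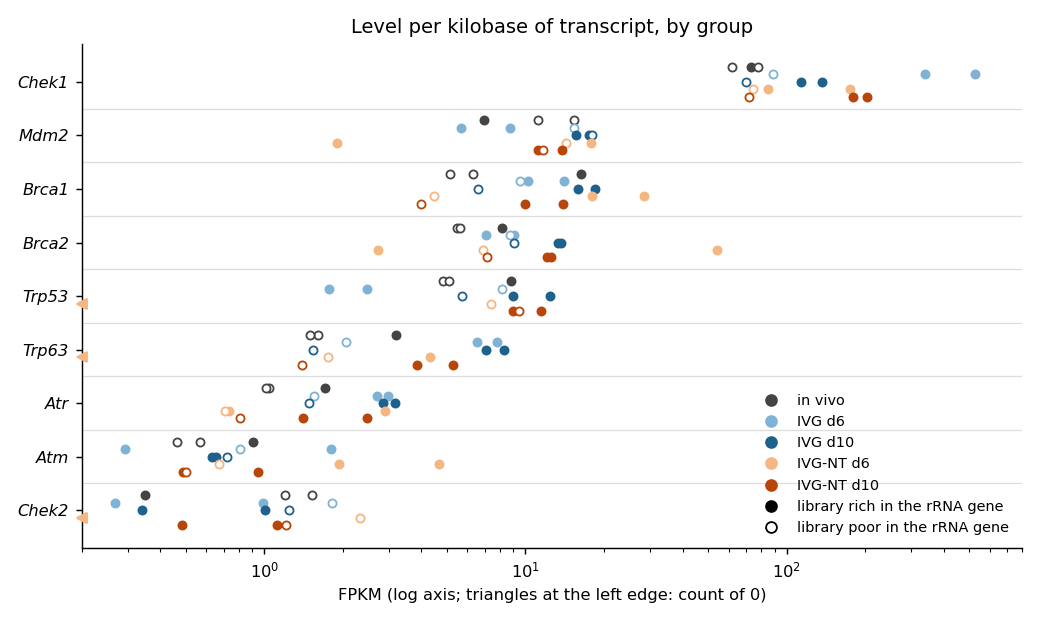
FPKM (log axis) of each member in each of the 15 libraries, with 1 row of points per group, filled for rRNA-rich and open for rRNA-poor libraries, and triangles at the left edge for a count of 0. Chek1 lies to the right of all other members, at 62.0 FPKM in its lowest library, and Chek2 and most Atm values lie at the left.

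The apical kinases differed in how steady they were. Atm stood at 4.29, 10.8 and 5.16 CPM in IVV replicates 2, 3 and 4, at 7.19, 6.65 and 5.99 CPM in IVG and at 6.04, 11.2 and 4.65 CPM in IVG-NT replicates 1, 2 and 3. On day 6 it was 19.2, 3.71 and 6.83 CPM without NT-4, and 21.5, 59.7 and 5.71 CPM with it. The day 10 and IVV groups thus overlapped fully, and the high Atm values were in day 6 libraries, the highest in a shallow one. Atr, the kinase of stalled forks, was 22.0, 46.6 and 21.1 CPM in IVV, 74.0, 73.6 and 28.1 CPM in IVG and 39.8, 67.3 and 17.2 CPM in IVG-NT. On day 6 Atr was 65.6, 85.5 and 30.0 CPM without and 18.6, 85.1 and 13.7 CPM with NT-4. In every group the lowest Atr library was an rRNA-poor one, and the groups overlapped. Atr shares 726 and 462 exon bases with the antisense genes 1700065D16Rik and Gm16794, and the sources used here do not state whether strand was used in counting, so reads there cannot be told apart.

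Chek1, the kinase that ATR activates, was 257, 389.5 and 319 CPM in IVV, 699.9, 519 and 261 CPM in IVG and 1125, 951 and 298 CPM in IVG-NT. On day 6 it was 1622, 2969 and 336 CPM without NT-4 and 873, 489 and 284 CPM with it. Its 6 rRNA-poor libraries, 2 of IVV and 1 of each culture group, lay between 257 and 336 CPM, and every value above that range was in an rRNA-rich one. Chek2, which ATM activates, rested on few reads, with 0 to 350 counts per library. It was 4.08, 1.21 and 3.19 CPM in IVV, 1.12, 2.97 and 2.99 CPM in IVG and 1.74, 3.86 and 3.27 CPM in IVG-NT. On day 6 without NT-4 it was 3.06, 0.98 and 4.47 CPM. With NT-4 it had a count of 0 in replicates 1 and 2, which allows up to 0.54 and 0.52 CPM (3 counts each, for counting error only), and 5.71 CPM in replicate 3. No group of Chek2 stood apart from another.

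Trp63 was 12.1, 30.9 and 11.1 CPM in IVV, 65.6, 68.2 and 10.3 CPM in IVG and 38.7, 50.8 and 10.5 CPM in IVG-NT. On day 6 it was 56.3, 79.3 and 14.1 CPM without NT-4, and 38.9, 0 and 12.1 CPM with it, the count of 0 in shallow replicate 2 allowing up to 0.52 CPM. Each of its 6 rRNA-poor libraries held 10.3 to 14.1 CPM, whatever the group. Counts per gene add the isoforms of p63 with and without the transactivating domain. Trp53 was 17.5, 41.2 and 18.3 CPM in IVV, 40.0, 49.7 and 18.5 CPM in IVG and 55.7, 41.7 and 34.6 CPM in IVG-NT. On day 6 Trp53 was 10.3, 8.70 and 27.0 CPM without NT-4, and 0, 0 and 24.5 CPM with it. All 3 IVG-NT libraries of day 10 were above all 3 of day 6, the IVG groups overlapped, and the low values were in rRNA-rich day 6 libraries. Mdm2 was 51.0, 40.6 and 68.7 CPM in IVV, 87.3, 87.7 and 73.4 CPM in IVG and 68.0, 80.5 and 53.4 CPM in IVG-NT. On day 6 it was 45.9, 35.1 and 64.0 CPM without NT-4, and 97.4, 12.0 and 59.7 CPM with it. The IVG libraries lay above those of IVV and of IVG day 6, and the lead was present in both kinds of library.

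Brca1 was 39.3, 160 and 47.5 CPM in IVV, 174, 134 and 44.9 CPM in IVG and 102, 137 and 30.6 CPM in IVG-NT. On day 6 it was 124, 107 and 66.2 CPM without NT-4 and 260.0, 190.0 and 31.3 CPM with it. Within every group the rRNA-poor libraries were the lowest. Brca2 was 67.0, 128 and 67.6 CPM in IVV, 201, 185 and 98.7 CPM in IVG and 205, 189 and 87.8 CPM in IVG-NT. On day 6 it was 127, 117 and 97.8 CPM without NT-4, and 39.9, 918 and 77.2 CPM with it. The 2 shallow libraries were the lowest and the highest Brca2 values of all 15, and without them the gene ranged from 67.0 to 205 CPM.

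**Figure D2:**
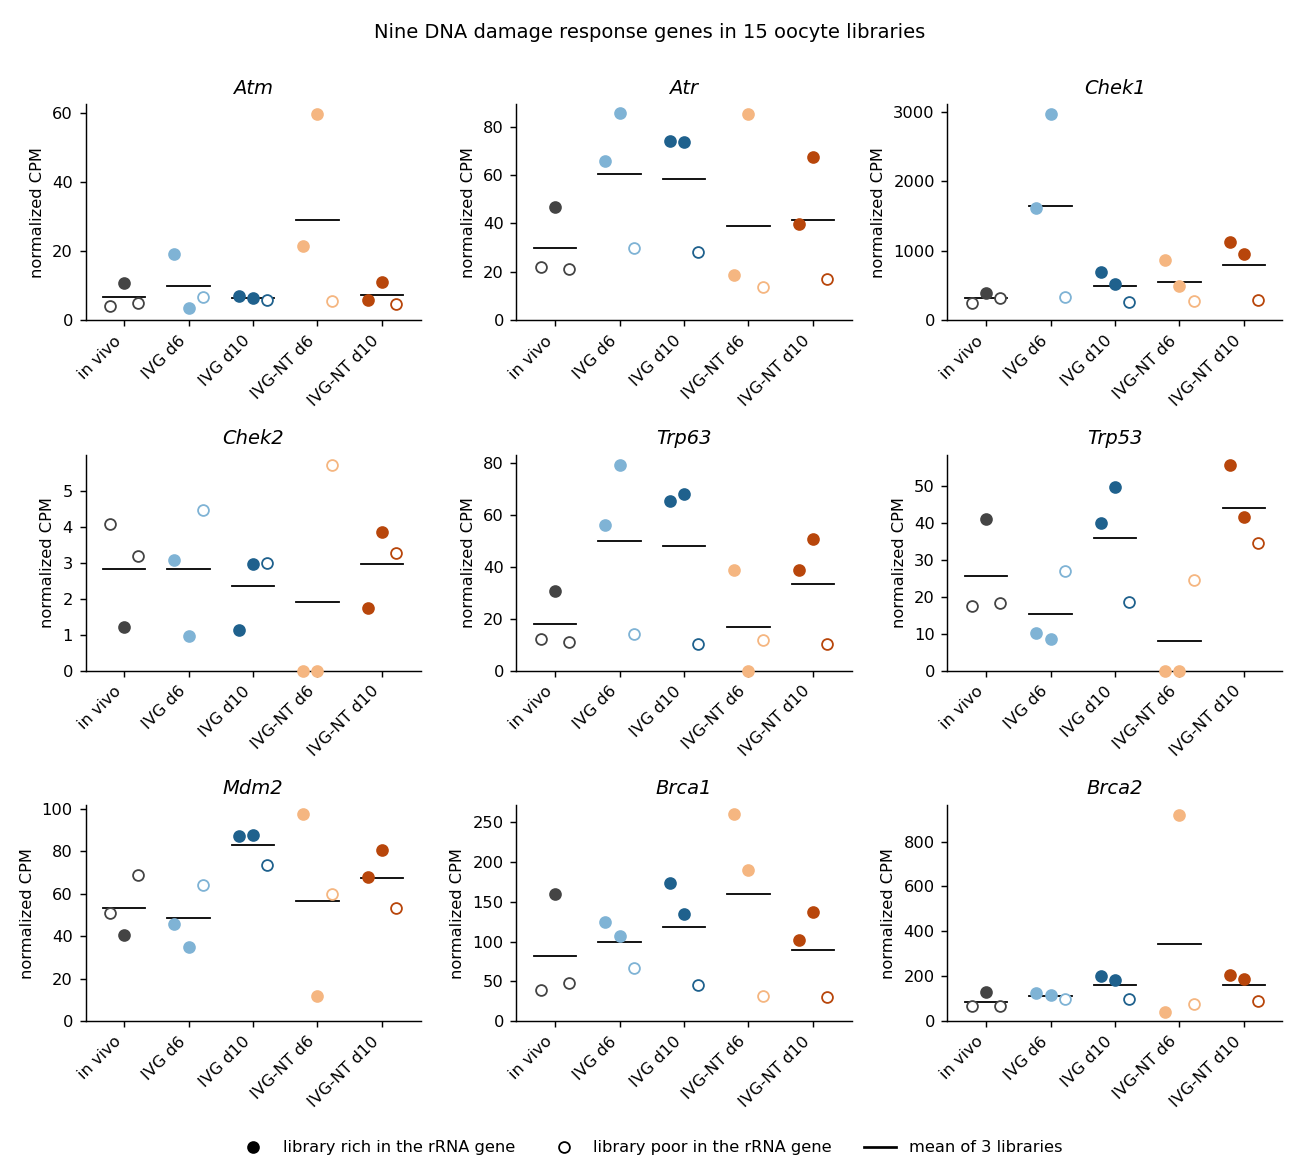
Normalized CPM (linear axes from 0, a scale for each gene) of the 9 members in 3 libraries of each group, filled for rRNA-rich and open for rRNA-poor, with the group mean as a line. Chek1 reaches 2969 CPM in IVG day 6 while its open points stay between 257 and 336 CPM.

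In GV oocytes of day 10 no member differed from in vivo by the study's rule for a differentially expressed gene (DEG), a log2 fold change beyond 1 with an unadjusted P under 0.05. In IVG against IVV 0 of 9 were called, where 2.76% of all 21009 genes were, and the log2 fold changes ran from -0.26 for Chek2 to 1.41 ± 1.32 (SE) for Trp63, with 0.97 ± 0.86 for Atr, 0.88 ± 0.89 for Brca2, 0.63 ± 0.72 for Mdm2 and 0.62 ± 0.73 for Chek1. The median of the members was 0.62 and that of all genes -0.20. Mdm2 did not overlap between the groups, as 11.9% of all genes did not, and its exact permutation p was 0.1, the smallest that 3 libraries against 3 allow. In IVG-NT against IVV, which shares the IVV libraries, 0 of 9 were called beside 3.29% of all genes, and Chek1 had the smallest P (log2 fold change 1.30 ± 0.74, adjusted p = 1 by edgeR, exact permutation p = 0.3). Without IVG-NT replicate 3 the rule called Chek1 there, at 1.69 with an adjusted p = 0.649. No member was free of overlap in that comparison, against 11.6% of all genes. NT-4 on day 10 moved no member past the rule either: IVG-NT against IVG, which shares both groups with the above, gave 0 of 9 beside 1.24% of all genes, with values from -0.53 ± 1.30 for Trp63 to 0.68 ± 0.73 for Chek1. Here 0 members and 3.59% of all genes did not overlap, and Brca2 differed by -0.01 ± 0.88. With such standard errors, 0.72 to 1.63, a change of 1 on the log2 scale was not detectable for a single member. CPM are relative to a library's total, so more transcripts of a gene per oocyte and fewer of the other genes cannot be told apart. DESeq2 called 0 members in these 3 comparisons as well. Its own test gave no P for Trp53 and Brca2 in IVG against IVV, so they could not be called there.

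The wider pathway was read from 112 other genes in lists of p53 regulators, p53 and p63 targets, sensors, checkpoint effectors and repair, of which 108 passed the filter. In IVG against IVV 4 of them were called higher and 1 lower, 4.63% of them beside 2.76% of all genes. Higher were Crebbp, an acetyltransferase that acts on p53 (log2 fold change 1.85 ± 0.77), Palb2, the partner that joins BRCA1 to BRCA2 (1.93 ± 0.82), Rpa1, which coats single-stranded DNA (1.33 ± 0.60), and the p53 target Trp53inp1 (2.11). IVG and IVG-NT hold more rRNA-rich libraries than IVV, and Crebbp, Trp53inp1 and Palb2 were also called higher in rRNA-rich libraries. In the rRNA-poor libraries Palb2 was 21.8 CPM in IVG and 18.4 and 28.2 CPM in IVV. There Crebbp was 183 against 107 and 103 CPM, Trp53inp1 53.2 against 27.8 and 29.1 CPM, and Rpa1 197 against 78.3 and 144 CPM. Pmaip1, which encodes the death factor NOXA and is a target of p53 and p63, had 19, 69 and 31 counts in IVV and 0 in all 3 IVG libraries. Measured against 3 counts over the IVG group, the IVV mean of Pmaip1 was 79.1-fold above that limit, and 23.4-fold without IVV replicate 3. In IVG-NT it had 44, 0 and 7 counts, a mean 22.1-fold above the limit and 3.72-fold without IVG-NT replicate 1. The limit covers counting error only and not the spread between libraries, and IVG-NT replicate 2 was itself at 0. Pmaip1 was the 1 pathway gene called between IVG-NT and IVG, 0.93% of them beside 1.24% of all genes. IVG-NT against IVV had 2 genes called higher, Trp53inp1 (2.15 ± 0.95) and Palb2 (1.83 ± 0.82), 1.85% of the pathway genes beside 3.29% of all genes. None of these genes had an adjusted p under 0.05, and in edgeR 0 of all genes did in any of these 3 comparisons, where 579, 691 and 261 genes had an unadjusted P under 0.05 and DESeq2 gave 68, 90 and 51 with an adjusted p under 0.05.

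**Figure D3:**
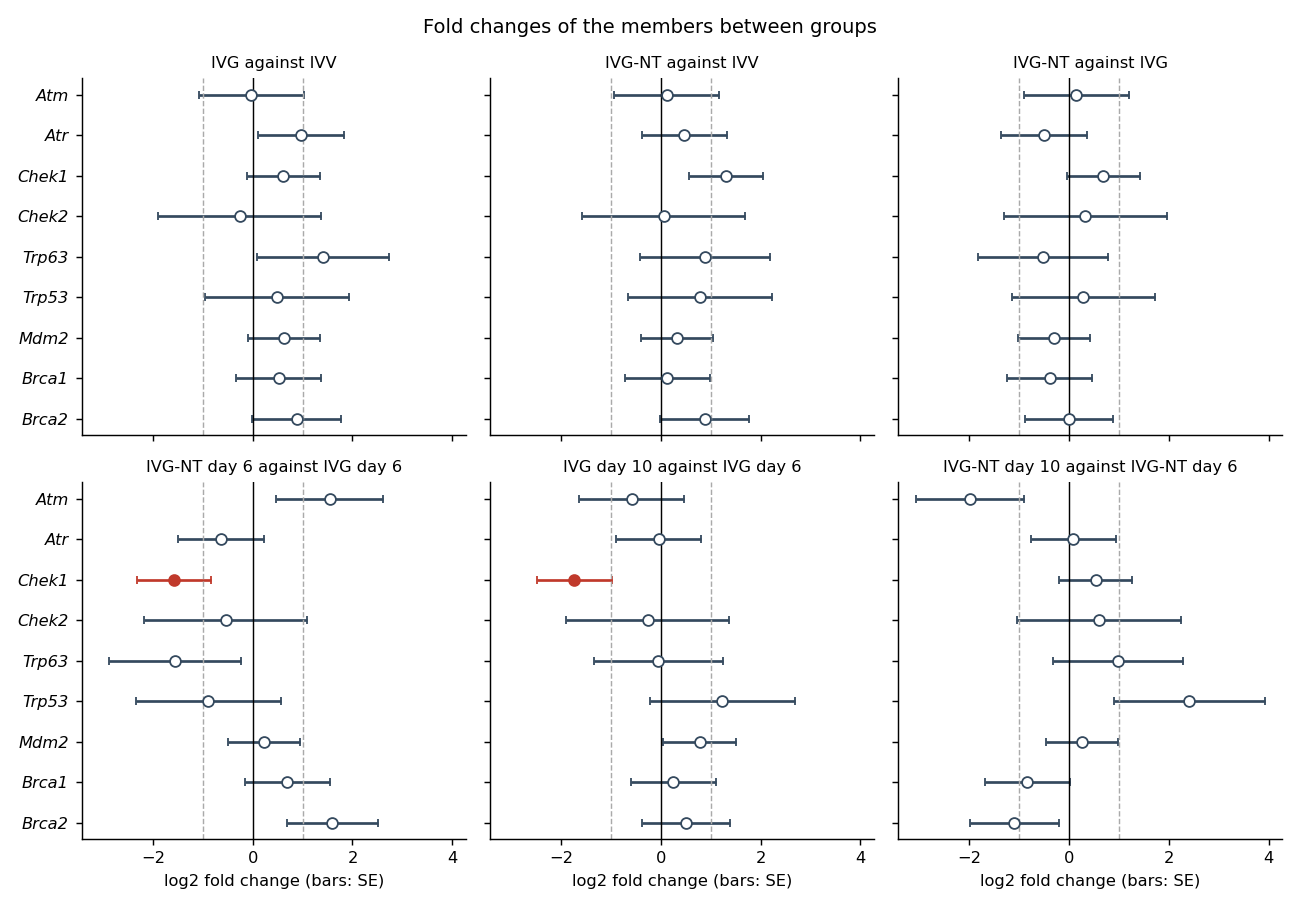
Log2 fold change (points, with SE as bars) of the 9 members in 6 comparisons from 1 edgeR fit, with dashed lines at -1 and 1 and filled red points for called members. Chek1 is the only filled point, at -1.58 between the day 6 groups and at -1.74 between IVG day 10 and day 6.

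On day 6 Chek1 was the 1 member called lower with NT-4, a share of the members close to that of all genes. In IVG-NT day 6 against IVG day 6 its log2 fold change was -1.58 ± 0.75 (adjusted p = 0.432 by edgeR's quasi-likelihood test with Benjamini-Hochberg adjustment, exact permutation p = 0.3), and 1 of 9 members (11.1%) was called, where 11.6% of all genes were. Its groups overlapped, since the rRNA-poor values were 284 and 336 CPM, and 0 members beside 8.45% of all genes were free of overlap. Once kind was added to the fit Chek1 stood at -1.36 ± 0.43 (adjusted p = 0.260), and in the rRNA-rich libraries alone at -1.84 ± 0.40. Between the 2 rRNA-poor libraries it differed by -0.24 on the log2 scale. The call was lost without IVG-NT day 6 replicate 2 (-1.47) or 3 (-1.28) and without IVG day 6 replicate 1 (-1.60) or 2 (-0.82). It was also lost without both shallow libraries, at -2.42 ± 1.19 (adjusted p = 0.928), when the library left with NT-4 was rRNA-poor, and with DESeq2, at -1.03. Over all alternatives its adjusted p lay between 0.0965 and 1. Atm (1.55 ± 1.08) and Brca2 (1.60 ± 0.90) were not called, and both turned negative without the shallow pair, to -0.71 and -0.47. Trp63 stood at -1.56 ± 1.32 and Trp53 at -0.89 ± 1.45.

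Single libraries of IVG-NT day 6 decided which other members were called. Without replicate 1 Brca2 was called as well (2.14), and without replicate 2 only Atr was (-1.86). Without replicate 3 both remaining libraries were at 0 for Trp53 and Chek2, which were then called (adjusted p = 0.00365 and 0.0313) together with Atm (2.03) and Brca2 (2.07), and Chek1 was not. With DESeq2 size factors Brca2 (2.08) was called and Chek1 was not. DESeq2's own test called Atm (2.05). With all libraries in the fit no member that was given an adjusted p had one under 0.05, with DESeq2 or edgeR. Among the pathway genes 4 were called higher and 4 lower on day 6, 7.41% of them beside 11.6% of all genes. Sesn2, a p53 target that answers to stress, was 194 and 141 CPM in the shallow libraries and 1.34 CPM in replicate 3, against 1.15, 9.88 and 2.03 CPM without NT-4 (log2 fold change 4.68 ± 1.40). Fanca of the Fanconi anaemia core complex was 53.3, 26.8 and 1.96 CPM against 0.50, 1.44 and 3.71 CPM (3.85 ± 1.31). Dclre1c, the nuclease Artemis of end joining, was called higher on 1 library, with 0, 343 and 7.50 CPM against 3.56, 5.61 and 2.56 CPM. Ppp1r13l, an inhibitor of p53, was 0, 0 and 1.01 CPM against 19.3, 30.0 and 1.60 CPM. Without both shallow libraries 4 pathway genes were called and none of these 4 was, with Sesn2 at -1.59 ± 1.51, Fanca at 0.10 ± 1.20, Dclre1c at 1.04 ± 1.13 and Ppp1r13l at -3.95 ± 2.19.

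Between day 6 and day 10 without NT-4, Chek1 was called lower on day 10. Its log2 fold change in IVG day 10 against day 6 was -1.74 ± 0.75 (adjusted p = 1, exact permutation p = 0.3), the 1 member called, beside 2.90% of all genes. It was -1.51 ± 0.43 once kind was added to the fit (adjusted p = 0.965) and -1.75 with DESeq2. The call was lost without IVG replicate 2 (-1.77) or 3 (-1.43) and without IVG day 6 replicate 1 (-1.74) or 2 (-0.99), and the range of its adjusted p over all alternatives was 0.924 to 1. Mdm2 went the other way, by 0.78 ± 0.73, and was the 1 member without overlap, as were 7.42% of all genes. In the rRNA-rich libraries Mdm2 was 87.3 and 87.7 CPM on day 10 against 45.9 and 35.1 on day 6, and in the rRNA-poor ones 73.4 against 64.0. Trp53 stood at 1.23 ± 1.46, with 40.0 and 49.7 CPM against 10.3 and 8.70 CPM in the rRNA-rich libraries and 18.5 against 27.0 CPM in the rRNA-poor ones, opposite directions. Of the 108 pathway genes 0 were called by edgeR with the group means alone and 1 with the replicate block. The smallest P were those of Fanca, with a log2 fold change of 2.19 ± 1.22, and Pmaip1, with 0, 0 and 28 counts on day 6 and 0 in all 3 libraries on day 10, both with an adjusted p of 1. DESeq2 called 1 pathway gene. Of all genes 609 had an unadjusted P under 0.05, 0 an adjusted p under 0.05 in edgeR and 109 in DESeq2.

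In the NT-4 cultures the members showed no call between the days. In IVG-NT day 10 against day 6, which shares its groups with the comparisons above, 0 of 9 were called beside 12.7% of all genes. The largest values were 2.41 ± 1.52 for Trp53 (adjusted p = 0.506) and -1.99 ± 1.09 for Atm (adjusted p = 0.450), and Chek1 stood at 0.53 ± 0.73. Trp53 did not overlap, as 11.0% of all genes did not. Without replicate 3 of day 6 Trp53, Chek2 and Atm were called, without replicate 2 Brca2 was (1.38), and without both shallow libraries none was. Without replicate 3 of day 6 the quasi-likelihood test gave an adjusted p of 0.00260 for Trp53 and 0.0298 for Chek2. Both then rested on counts of 0 in the 2 shallow libraries. The same 2 libraries stand for day 6 in the rRNA-rich libraries alone, where Trp53 was at 13.2 and Chek2 at 9.09. DESeq2 called Atm (-2.55, adjusted p = 0.0908). Pathway genes called numbered 7 higher and 4 lower, 10.2% of the pathway genes beside 12.7% of all genes. Among those called were Sesn2 (-5.03 ± 1.43), Dclre1c (-5.19 ± 1.75), Ppp1r13l (5.41 ± 1.85) and Rrm2b, the p53-induced ribonucleotide reductase subunit (2.43 ± 0.82, with 371, 283 and 145 CPM against 28.6, 6.96 and 112 CPM). With both shallow libraries left out 2 were called and none of these 4 was, with Sesn2 at 1.24 ± 1.47, Dclre1c at -1.35 ± 1.11, Ppp1r13l at 3.94 ± 2.18 and Rrm2b at 1.14 ± 0.75.

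Chek1 was also the only member called for a difference between the days in the effect of NT-4. Its NT-4 effect was 0.68 on day 10 and -1.58 on day 6, a difference of 2.26 ± 1.04 (adjusted p = 0.767), and 1 of 9 members was called beside 6.37% of all genes. Without both shallow libraries the difference was 3.08 ± 1.38 and called, but the 1 library then left in IVG-NT day 6 is rRNA-poor, a kind in which Chek1 was lower in every group. It lost the call with DESeq2 (1.67) and without any one of IVG replicate 2 (2.31) or 3 (1.96), IVG-NT replicate 1 (1.87) or 2 (2.07), IVG-NT day 6 replicate 2 (2.13) or 3 (1.96), and IVG day 6 replicate 1 (2.28) or 2 (1.48). Its adjusted p over all alternatives was 0.198 to 1. Without IVG-NT day 6 replicate 3 the members called were Chek2 and Trp53. In the day 6 comparison, the day 10 against day 6 comparison of IVG-NT and this difference, edgeR gave 0 of all genes an adjusted p under 0.05, beside 2430, 2661 and 1339 genes with an unadjusted P under 0.05 and 602, 679 and 165 by DESeq2.

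The kinds of library were also compared, 9 libraries against 6 where the group comparisons set 3 against 3. The numbers of calls are therefore not comparable with those between groups. With the group as a covariate, 5 of 9 members were called higher in the 9 rRNA-rich than in the 6 rRNA-poor libraries and 0 lower, where 35.1% of all genes were called, and 3 of 9 had an adjusted p under 0.05, where 23.7% of all genes did. This contrast was added with the libraries' rRNA shares and earlier results known. Brca1 was 30.6 to 66.2 CPM in the poor and 102 to 260.0 CPM in the rich libraries (log2 fold change 1.81 ± 0.32, adjusted p = 0.00122), and Chek1 257 to 336 against 389.5 to 2969 CPM (1.48 ± 0.31, adjusted p = 0.00418). These 2 genes did not overlap over all 15 libraries. The share of all genes without overlap between the kinds is not given, with or without the shallow libraries. The lack of overlap is therefore not read as a trait of the members. Atr differed by 1.48 ± 0.41 (adjusted p = 0.0196), Trp63 by 1.79 ± 0.82 (adjusted p = 0.129) and Brca2 by 1.13 ± 0.52 (adjusted p = 0.130).

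Without the 2 shallow libraries Brca1 stood at 1.51 ± 0.22 and Chek1 at 1.47 ± 0.31. Trp63 held 10.3 to 14.1 against 30.9 to 79.3 CPM (2.05 ± 0.26, adjusted p = 2.18e-05), Atr 13.7 to 30.0 against 39.8 to 85.5 CPM (1.29 ± 0.22, adjusted p = 0.000299) and Brca2 67.0 to 98.7 against 117 to 205 CPM, none of them overlapping. Brca2 lost its call, at 0.76 ± 0.18 (adjusted p = 0.00420). Mdm2 (-0.14 ± 0.43), Trp53 (-0.85 ± 1.13), Chek2 (-1.97 ± 1.12) and Atm (1.07 ± 0.63) were not called, and Trp53 turned to 0.24 without the shallow pair. The median of the members was 1.13 and that of all genes -0.54. Granulosa cell markers summed to 265 to 1507 CPM, median 932, in the rich and 350 to 796 CPM, median 554, in the poor libraries, and oocyte markers to 14092 to 24665 against 20567 to 26762 CPM. Macrophage and blood markers had a median sum of 9.71 CPM in the rich and 55.3 CPM in the poor libraries, and theca and stroma markers of 1.54 and 11.2 CPM. Their part in the result was not tested, and in the culture groups kind and replicate number cannot be told apart. Among the pathway genes 19 were called higher and 12 lower, led by Ep300 (3.17 ± 0.28), Crebbp (1.61 ± 0.23) and Hipk2 (2.08 ± 0.31), which modify p53 by acetyl or phosphate groups, and by Ube2t of the Fanconi anaemia pathway (-2.23 ± 0.25), each with an adjusted p of at most 0.000372. The pathway genes called were 28.7% of 108, beside 35.1% of all genes. By list the share ran from 11.8% of the p53 and p63 targets to 46.7% of the p53 regulators, where 7 of 15 were called, all higher. Of 10 end joining genes 1 was called higher and 3 lower.

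**Figure D4:**
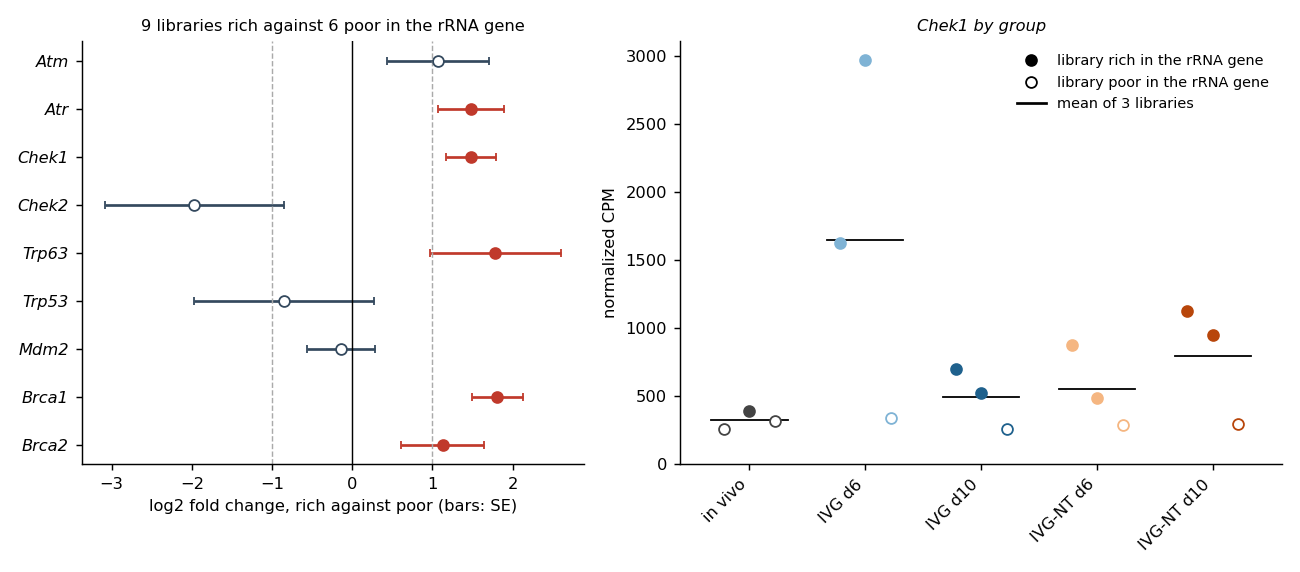
Left, log2 fold change (SE as bars) of each member in 9 rRNA-rich against 6 rRNA-poor libraries with the group as a covariate, filled red where called and with dashed lines at -1 and 1. Right, normalized CPM of Chek1 by group, filled for rRNA-rich and open for rRNA-poor libraries and with group means as lines, in which each filled point lies above every open one.

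The genes most like each member over the 15 libraries, by Pearson's r of log2 CPM, were Pld6 for Atm (r = 0.95), Atf7ip for Atr (0.96), Wdr89 for Chek1 (0.96), Dnajc30 for Chek2 (0.99), Fbxw11 for Trp63 (0.99), Lrrc49 for Trp53 (0.99), Ctbs for Mdm2 (0.95), 1700017B05Rik for Brca1 (0.97) and Vps50 for Brca2 (0.97). These are the highest of 21009 values per member and share the libraries' kind and depth. Without the 2 shallow libraries r was 0.97 for Chek1 and 0.97 for Trp63, and it was lower for Mdm2 (0.82), Trp53 (0.85) and Chek2 (0.88).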

How the data were processed

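Per the labels and the study's methods, oocyte pools were amplified with SMART-Seq2. The authors filtered the reads, aligned them to mm10 with HISAT2, and deposited whole-number counts per Ensembl gene, not normalized. The counter, its use of strand and its annotation are not given in the sources used here. The table of the whole series was not used. Groups and replicate numbers follow the titles (IVV: 2, 3 and 4). The methods describe a group's libraries as coming from repeated experiments. The labels do not tie replicate numbers or animals to these, so p-values measure the spread between these libraries.

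Symbols and exon lengths came from GENCODE vM21 (99.5% of identifiers have a symbol). In R 4.3.3, edgeR 4.0.16 (limma 3.58.1) kept genes by filterByExpr (minimum count 10), scaled by TMM and fitted the 5 group means to all 15 libraries at once, with quasi-likelihood tests and Benjamini-Hochberg adjustment over 21009 genes. Calls use the study's threshold, past 1 on the log2 scale at unadjusted P below 0.05. Exact permutation tests, two-sided, used log2 CPM (prior count 2). FPKM divide by exon length and by all counts. A library with over 5% of counts on CT010467.1 is rRNA-rich. The fit was tested on simulated data. Limits for a count of 0 are 3 counts and cover counting error only.

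Deviations from the group means of same-numbered libraries correlated at 0.37, 0.41 and 0.73 between IVG and IVG-NT and at 0.23, 0.15 and 0.54 between IVG and IVG day 6, which were taken as paired. In the other culture pairs replicates 1 and 2 were at or below 0.11, and against IVV all were negative. Same-numbered libraries are of the same kind among the culture groups and of opposite kinds between IVV and the cultures. The correlations thus hold kind as well and cannot tell whether libraries were paired.

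The members and gene lists were chosen with earlier results of these data known. By rule all 9 members were reported, with, per comparison, up to 4 called pathway genes of smallest P, or 1 higher and 1 lower where none was called, and the most correlated gene of each member. Trp53inp1 in IVG against IVV was named in addition after its value was seen. Alternatives were DESeq2 1.42.0 (size factors, test), no filter, only the compared groups, a replicate block, kind of library, rRNA-rich libraries alone and each library left out. Leaving out both shallow libraries, the contrast of kinds, and the bounds for Pmaip1 without 1 library were chosen after the data were seen.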

Additional observations from a re-analysis of the deposited data

Results flagged for a closer look

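The effect of NT-4 differed between day 10 and day 6, by the test of the difference itself, for 6 of the 117 genes followed here, 5.13% of them beside 6.37% of all genes. Chek1 had a difference of 2.26 on the log2 scale, from 0.68 on day 10 and -1.58 on day 6. Sesn2 had -5.70, from -1.02 and 4.68, and Fanca had -4.39, from -0.54 and 3.85. Dclre1c had -5.10, from -0.20 and 4.90. Ppp1r13l had 5.10, from -0.30 and -5.41, and Rrm2b had 2.45, from 0.59 and -1.86. Unadjusted P lay between 0.00632 for Sesn2 and 0.0449 for Chek1, and the adjusted p were 0.664 to 0.767 by edgeR, so none passed the correction. None of the 5 genes other than Chek1 was called without the 2 shallow IVG-NT day 6 libraries, where the difference was 0.56 for Sesn2, -0.66 for Fanca, -1.26 for Dclre1c, 3.62 for Ppp1r13l and 1.15 for Rrm2b. Sesn2 was at 194 and 141 CPM in the shallow libraries and at 1.34 CPM in replicate 3. Rrm2b was at 28.6 and 6.96 CPM in them and at 112 CPM in replicate 3. Dclre1c was high in replicate 2 alone, at 343 CPM. For Chek1 the difference was 3.08 without both of them, and the library then left is rRNA-poor, a kind in which Chek1 was lower in every group.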

How the results depend on the processing

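The call of Chek1 in the IVG days (IVG day 10 against day 6) held in 6 of 7 alternatives other than leaving out a library, and in 2 of 6 with 1 library left out. In the day 6 comparison it held in 4 of 8 and 2 of 6, and in the difference in the NT-4 effect in 5 of 8 and 4 of 12. No alternative called a member in IVG against IVV or in IVG-NT against IVG. With the replicate block Chek1 was -1.58 in the IVG days and 0.59 in IVG-NT against IVG, the 2 comparisons taken as paired. The block changed no call of a member there. In the day 6 comparison, where the numbers were not taken to pair the libraries, it was -1.44 with the block. Against TMM the DESeq2 size factors moved the median log2 fold change of all genes by -0.19 in IVG against IVV, -0.17 in IVG-NT against IVV, 0.27 in the day 6 comparison, -0.36 in the IVG-NT days, -0.32 in the difference in the NT-4 effect and -0.17 between the kinds of library, and the members moved with it. The cause of the signs that turned was not tested. Brca2 was called with its sign turned in the IVG-NT days (1.38) without IVG-NT day 6 replicate 2. The share of all genes called under each alternative is not given here. The numbers of calls below are therefore not read as a response of the members or of the pathway.

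With DESeq2 size factors the members called numbered 1 in the IVG-NT days, 0 in the difference in the NT-4 effect and 3 in the kinds of library, and the pathway genes called numbered 3 in IVG against IVV, 1 in IVG-NT against IVV and 1 in the IVG days. Signs turned for Chek2 (-0.17), Atm (-0.092) and Brca1 (-0.094) in IVG-NT against IVV, Chek1 (-0.078), Atr (-0.49) and Mdm2 (-0.26) in the IVG-NT days, Atr (-0.41) in the difference in the NT-4 effect. With DESeq2's Wald test the members called numbered 1 in the IVG-NT days and 0 in the difference in the NT-4 effect, and the pathway genes called numbered 14 in the day 6 comparison and 1 in the IVG days. A gene to which that test gave no P counts as not called. Signs turned for Chek2 (-0.17), Atm (-0.091) and Brca1 (-0.094) in IVG-NT against IVV, Chek1 (-0.078), Atr (-0.49) and Mdm2 (-0.26) in the IVG-NT days, Atr (-0.41) in the difference in the NT-4 effect. Without a filter on low counts the pathway genes called numbered 1 in IVG-NT against IVV and 1 in the IVG days. With only the compared groups in the fit the members called numbered 0 in the day 6 comparison, 0 in the IVG days and 0 in the difference in the NT-4 effect, and the pathway genes called numbered 9 in IVG against IVV, 5 in IVG-NT against IVV, 0 in IVG-NT against IVG, 2 in the day 6 comparison, 2 in the IVG days and 3 in the IVG-NT days. Signs turned for Atm (0.083) in IVG against IVV. With the replicate block the pathway genes called numbered 1 in IVG against IVV, 0 in IVG-NT against IVV, 5 in the day 6 comparison, 1 in the IVG days and 7 in the IVG-NT days. Signs turned for Chek1 (-0.046) and Brca1 (-0.67) in IVG against IVV, Trp63 (-0.25), Atm (-0.39), Atr (-0.34) and Brca1 (-1.04) in IVG-NT against IVV. Replicate numbers were not taken to pair IVV with the cultures, and same-numbered libraries there are of opposite kinds. These turned signs therefore cannot be read as those of a paired fit. With kind added to the fit the pathway genes called numbered 2 in IVG-NT against IVG, 2 in the IVG days and 18 in the IVG-NT days. Signs turned for Chek1 (-0.035) and Chek2 (0.66) in IVG against IVV, Atm (-0.18), Atr (-0.10) and Brca1 (-0.42) in IVG-NT against IVV. With the rRNA-rich libraries only the members called numbered 1 in IVG-NT against IVV, 3 in the day 6 comparison, 2 in the IVG-NT days and 2 in the difference in the NT-4 effect, and the pathway genes called numbered 5 in IVG-NT against IVV, 0 in IVG-NT against IVG, 28 in the day 6 comparison, 5 in the IVG days and 35 in the IVG-NT days. Signs turned for Chek2 (0.78) and Brca1 (-0.034) in IVG against IVV, Atm (-0.30) and Brca1 (-0.40) in IVG-NT against IVV, Brca2 (0.038) in IVG-NT against IVG. Without both shallow libraries the members called numbered 0 in the day 6 comparison, the pathway genes called numbered 4 in the day 6 comparison and 2 in the IVG-NT days and the median of the members was 0.94 in the IVG-NT days. Signs turned for Trp53 (0.73), Chek2 (1.07), Atm (-0.71), Brca1 (-1.57) and Brca2 (-0.47) in the day 6 comparison, Chek2 (-1.04), Atm (0.24), Brca1 (1.40) and Brca2 (0.94) in the IVG-NT days, Trp53 (-0.46), Chek2 (-0.77), Atm (0.82), Brca1 (1.15) and Brca2 (0.44) in the difference in the NT-4 effect, Trp53 (0.24) in the kinds of library. Over the fits without 1 library each, the members called ranged over 0 to 1 in IVG-NT against IVV, 0 to 4 in the day 6 comparison, 0 to 1 in the IVG days, 0 to 3 in the IVG-NT days and 0 to 2 in the difference in the NT-4 effect. Over the fits without 1 library each, the pathway genes called ranged over 1 to 7 in IVG against IVV, 0 to 5 in IVG-NT against IVV, 0 to 1 in IVG-NT against IVG, 5 to 38 in the day 6 comparison, 0 to 3 in the IVG days and 5 to 43 in the IVG-NT days. The log2 fold changes whose sign turned in such fits were those of Chek2 (-0.66 to 0.10) and Atm (-0.26 to 0.44) in IVG against IVV, Chek2 (-0.35 to 0.42), Atm (-0.36 to 0.56), Atr (-0.10 to 0.87) and Brca1 (-0.34 to 0.97) in IVG-NT against IVV, Trp53 (-0.028 to 0.59), Chek2 (-0.031 to 0.58), Atm (-0.30 to 0.38), Brca1 (-0.84 to 0.017) and Brca2 (-0.26 to 0.28) in IVG-NT against IVG. They were also those of Chek2 (-9.62 to 0.088), Brca2 (-0.90 to 2.14) and Mdm2 (-0.37 to 0.72) in the day 6 comparison, Trp63 (-0.49 to 0.44), Chek2 (-0.70 to 0.23), Atm (-0.98 to 0.33), Atr (-0.36 to 0.29) and Brca1 (-0.14 to 0.64) in the IVG days, Chek2 (-0.061 to 9.67), Atr (-0.47 to 1.30), Brca2 (-1.66 to 1.38) and Mdm2 (-0.27 to 0.82) in the IVG-NT days, Atr (-0.43 to 1.34), Brca2 (-2.16 to 0.88) and Mdm2 (-1.03 to 0.056) in the difference in the NT-4 effect.

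With both shallow libraries, or 2 of 3 libraries of a group, left out, the lone library is assumed to vary like the other groups. Depth limits Chek2, at 0 to 350 counts per library, and Atm, at 72 to 533, the most.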
